A study of Mus musculus with 24 samples.

Results

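Mitf, Sox10 and Kit are core genes of the melanocyte lineage, and 6 probe sets (sets of short DNA probes that read a transcript on an Affymetrix array) carry their names in these data: 2 for Mitf, 3 for Sox10 and 1 for Kit. They were found by name in the authors' tables of regulated genes, which list 7261 of the 45037 probe sets tested here. Any further probe set of the 3 genes carries no name in the files used here and is not described. The tables hold only what the authors found regulated between states of the same compartment, so the direction of a change between states is not independent of how the probe sets came to be named. Comparisons of dermis with epidermis are not among those of the tables, but they use the same groups. The authors list Sox10 only as higher in neonatal epidermis, and Kit only as lower than telogen in dermis. Differences of these genes between dermis and epidermis are thus not independent of the naming either.

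Flow cytometry had split back skin of mice into GFP+ dermal fibroblasts and ItgA6+ epidermal keratinocytes, and the RNA of each sort was read on arrays in 4 states, 3 arrays to each of 8 groups and 24 in all. The states were neonatal and telogen (resting hair follicles) in wildtype mice, and transient activation (anagen, growing follicles) and sustained activation (ectopic follicles) in D2 mice. All mice were of a C57BL/6 CBA mixed background, and each array is labelled with the number of 1 mouse. The series title names epidermal activation of beta-catenin as the change under study. D2 is known as a line in which the Krt14 promoter, active in basal keratinocytes, drives a drug-inducible beta-catenin, but the labels give neither promoter nor drug nor the source of the GFP, and no age beyond neonatal. D2 groups differ from wildtype telogen in genotype and activation together, which cannot be told apart.

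The melanocyte is the pigment cell of skin and hair, derived from the neural crest. SOX10, a transcription factor of neural crest cells, switches on Mitf in melanocyte precursors, and MITF, a basic helix-loop-helix factor, then drives the genes of the melanosome, the pigment organelle. KIT is the receptor tyrosine kinase for KIT ligand, made by keratinocytes and fibroblasts, and is needed for the survival and migration of melanocyte precursors. None of the 3 genes is limited to melanocytes: Schwann cells keep Sox10, mast cells depend on Kit and use Mitf, and macrophages also express Mitf. Neither sort is labelled as a melanocyte sort, so the values are those of whatever cells passed each gate.

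Mitf has several start sites, each with its own first exon, and the most downstream of them is known as the melanocyte start, a classical target of LEF/TCF factors with beta-catenin, of CREB and of SOX10. The 2 Mitf probe sets do not tell the starts apart here. Mitf lies on chromosome 6 from 97807002 to 98021360, Kit on chromosome 5 from 75574987 to 75656722 and Sox10 on chromosome 15 from 79154913 to 79164490 (RefSeq, GRCm38.p6; the study's build is not given in the sources used here). The 3 RefSeq windows around Mitf starts (plus strand, 5′ to 3′, 250 bases before to 50 after a start) are shown because the study turns on beta-catenin, whose DNA partners read LEF/TCF sites; capitals mark letters of a searched motif.
Mitf window chr6:97806808-97807107: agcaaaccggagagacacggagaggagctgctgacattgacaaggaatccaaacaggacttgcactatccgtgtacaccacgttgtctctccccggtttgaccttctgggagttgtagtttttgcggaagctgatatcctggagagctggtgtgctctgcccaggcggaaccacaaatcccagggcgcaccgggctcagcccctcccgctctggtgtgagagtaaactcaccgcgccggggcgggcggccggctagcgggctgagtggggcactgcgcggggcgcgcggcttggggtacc
Mitf window chr6:97929567-97929866: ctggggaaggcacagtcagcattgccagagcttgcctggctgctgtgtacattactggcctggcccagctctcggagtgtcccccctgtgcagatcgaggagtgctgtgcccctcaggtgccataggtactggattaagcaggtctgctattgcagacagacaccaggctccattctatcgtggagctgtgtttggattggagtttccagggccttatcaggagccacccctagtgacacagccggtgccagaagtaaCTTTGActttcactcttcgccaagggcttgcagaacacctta
Mitf window chr6:97991533-97991832: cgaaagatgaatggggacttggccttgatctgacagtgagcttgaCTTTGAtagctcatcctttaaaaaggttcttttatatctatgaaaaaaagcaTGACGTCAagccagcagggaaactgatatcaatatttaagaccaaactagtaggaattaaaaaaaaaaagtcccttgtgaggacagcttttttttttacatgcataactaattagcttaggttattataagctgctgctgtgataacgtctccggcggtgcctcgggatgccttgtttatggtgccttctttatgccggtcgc

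The LEF/TCF core CTTTGA was found in the middle window, where it begins 8 bases after the start, and in the most downstream window, where it begins 205 bases before the start. The cAMP response element TGACGTCA, the palindrome that CREB binds, lies in the most downstream window 153 bases before the start. The most upstream window held no match to these, to the SOX core ACAAAG, to the M-box core CATGTG or to the palindromic E-box CACGTG, the last 2 being letters that MITF reads, and the 2 Kit windows held none either. Both strands were searched. Among 32851 RefSeq windows of the same length CTTTGA occurs in 16%, TGACGTCA in 1.79%, ACAAAG in 18.71%, CATGTG in 14.15% and CACGTG in 7.15%, so a match describes the letters and no more.

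Both sorts held the transcripts their labels call for. Col1a2, which codes for a chain of type I collagen, lay between 12.12 and 12.53 on the dermal arrays (all levels are log2 signal) and Trp63, the factor of basal keratinocytes, between 10.87 and 11.56 on the epidermal ones. All 6 named keratinocyte markers were lower in dermis in each state. The epidermal sorts differed in fibroblast genes: the summed linear signal of 10 fibroblast markers was 5996 to 7471 on neonatal, 1818 to 2616 on telogen, 477 to 487 on transient and 465 to 604 on sustained epidermal arrays, against 18757 to 32100.4 on dermal arrays. Keratinocyte genes stood higher in the sustained dermal sort, where the sum of 6 markers was 1967 to 3571 against 498 to 1442 in the other dermal groups. Array medians ran from 4.34 to 5.50, the highest being epidermal transient replicate 4, which also had the highest 5th percentile (1.44, the lowest being -0.96). That array correlated at 0.82 with replicates 2 and 3 of its group, lower than any other pair of replicates.

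**Figure D1:**
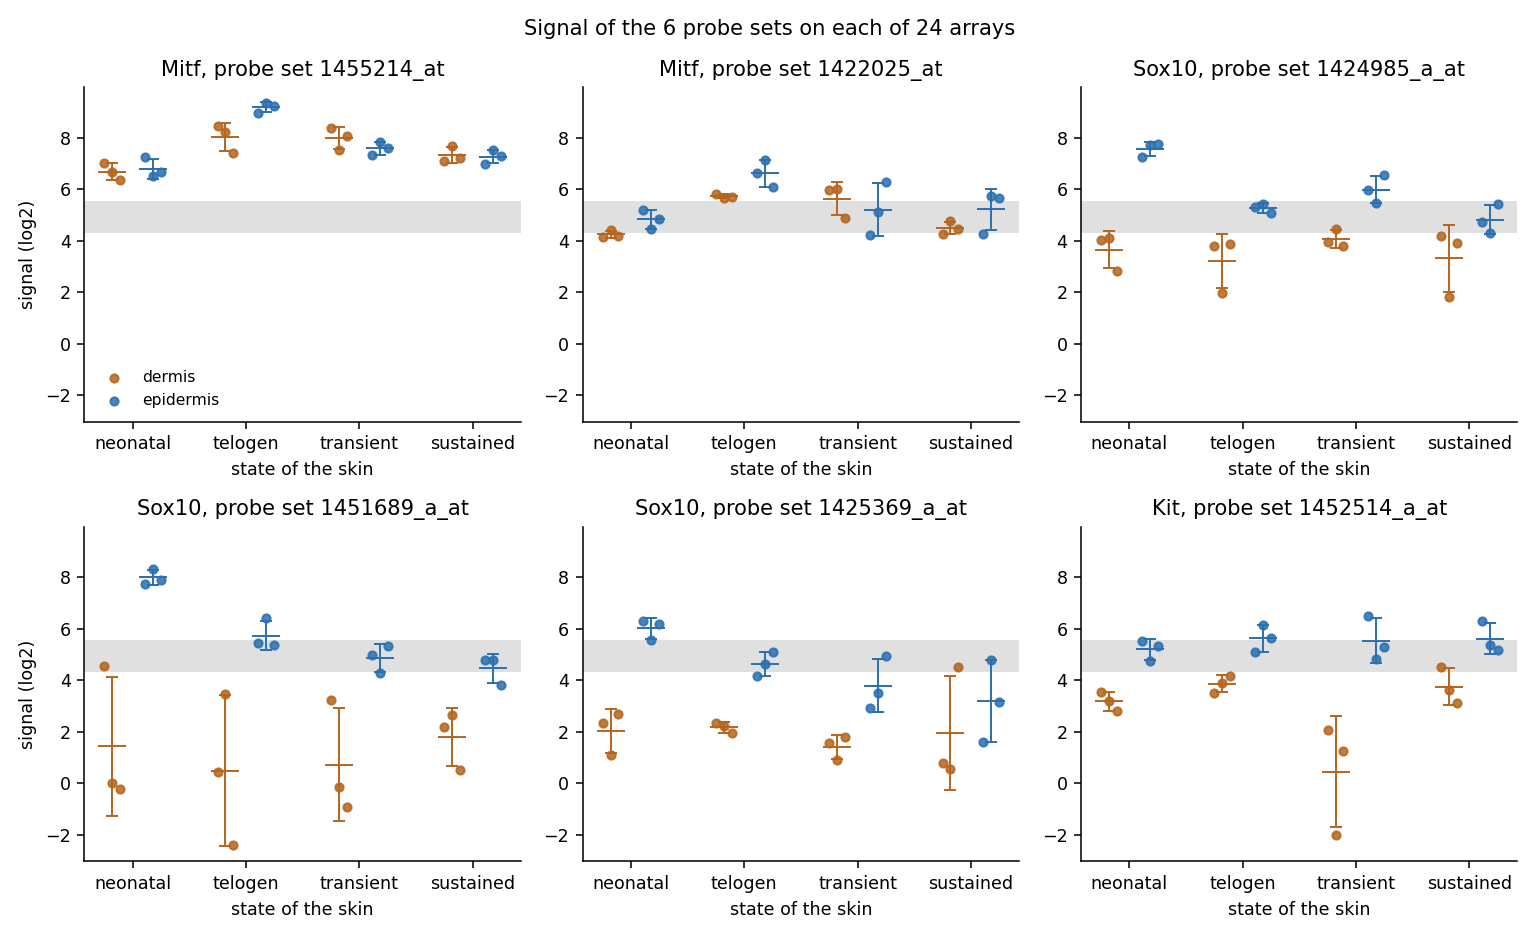
Log2 signal of the 6 probe sets on each of 24 arrays, by state of the skin (x axis) and compartment (colour); horizontal bars are group means, whiskers 1 SD over 3 arrays, and the grey band spans the array medians from 4.34 to 5.50. Mitf is highest in telogen epidermis (8.96 to 9.32), all 3 Sox10 panels are highest in neonatal epidermis, and Kit is lowest in transient dermis.

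By group means Mitf was highest in telogen and lowest in neonatal skin in both compartments, though dermal telogen and transient arrays overlapped and no difference between neonatal and sustained skin was called. In epidermis the brighter probe set, 1455214_at, stood at 7.24, 6.50 and 6.64 on the neonatal arrays and at 8.96, 9.32 and 9.24 on the telogen arrays. Transient epidermis gave 7.30, 7.83 and 7.60 and sustained epidermis 6.99, 7.52 and 7.28. Every telogen array was thus above every array of the other 3 epidermal groups. Relative to telogen, Mitf was lower by a log2 difference of -2.38 ± 0.27 (limma standard error, n = 3 per group, 95% interval -2.99 to -1.77, 5.2-fold) in neonatal, of -1.60 ± 0.27 (3.02-fold) in transient and of -1.91 ± 0.27 (3.76-fold) in sustained epidermis. The Benjamini-Hochberg adjusted p of limma over 45037 probe sets was 0.00167, 0.0348 and 0.0134. No difference among the 3 other epidermal groups was called (-0.78 to -0.32).

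The second Mitf probe set, 1422025_at, was dimmer and had the same order at its top, with 6.61, 7.12 and 6.09 in telogen epidermis. It stood at 5.19, 4.46 and 4.85 in neonatal, 4.22, 5.11 and 6.27 in transient and 4.27, 5.71 and 5.64 in sustained epidermis. Transient replicate 4 (6.27), the array with the highest median, reached into the telogen range of signal. By percentile within its array it did not (65.7, with telogen from 65.9). Its differences from telogen had the sign of the brighter probe set, at -1.78 ± 0.56, -1.41 ± 0.56 and -1.40 ± 0.56, and were not called (adjusted p = 0.0931, 0.235 and 0.325). Over the 24 arrays the probe sets correlated at r = 0.79, a description of arrays that share groups.

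In dermis the brighter probe set gave 7.01, 6.67 and 6.36 on neonatal, 8.45, 8.23 and 7.41 on telogen, 8.37, 7.51 and 8.06 on transient and 7.09, 7.66 and 7.21 on sustained arrays. Neonatal arrays were below all telogen and transient arrays, while sustained arrays overlapped both. The dimmer probe set stood at 4.15, 4.39 and 4.17 in neonatal, 5.80, 5.65 and 5.69 in telogen, 5.97, 6.01 and 4.89 in transient and 4.26, 4.75 and 4.45 in sustained dermis. Here neonatal and sustained arrays were both below all telogen and transient arrays.

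Against telogen dermis, neonatal dermis had less Mitf by both probe sets, with differences of -1.35 ± 0.35 (2.55-fold, adjusted p = 0.0304) and -1.48 ± 0.31 (2.78-fold, adjusted p = 0.0117). Against transient dermis the neonatal differences were -1.30 ± 0.35 (adjusted p = 0.0472) and -1.39 ± 0.31 (adjusted p = 0.0213). Sustained dermis was lower than telogen by the dimmer probe set (-1.23 ± 0.31, 2.34-fold, adjusted p = 0.0322), and by the brighter one the difference was -0.71 ± 0.35 (adjusted p = 0.211). Between transient and telogen dermis the differences were -0.05 (interval -0.82 to 0.73) and -0.09 (-0.77 to 0.59), neither called.

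These 5 dermal calls are all of Mitf. Sox10 and Kit had none in the 6 dermal comparisons. Neonatal and telogen dermis differed in 2 of the 6 probe sets, beside 13.3% of all probe sets. Of the 6, 2 were called between neonatal and transient (8.55% of all) and 1 between sustained and telogen (11%). None was called by limma between transient and telogen (0.488% of all), sustained and transient (2.22%) or neonatal and sustained dermis (4.35%), where 1, 2 and 0 had an unadjusted p under 0.05. The median of all probe sets was itself 0.42 higher in sustained than in telogen dermis and 0.18 higher in neonatal, and 0.03 in each once arrays were quantile normalized. The call of 1422025_at between neonatal and telogen dermis was kept in each of the 12 fits that leave out 1 array, and the other 4 dermal calls were not. That of 1455214_at between neonatal and telogen was lost without neonatal replicate 2 or 3 or telogen replicate 2 or 3 (adjusted p from 0.0755 to 0.101). Between sustained and telogen 1422025_at lost its call without any single array of either group (0.0508 to 0.108). Between neonatal and transient 1455214_at lost it in 9 of the 12 fits that leave out 1 array (0.0584 to 0.149) and 1422025_at in 5 (0.0523 to 0.0774).

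The epidermal Mitf call between neonatal and telogen was kept in every fit that left out 1 array and in each other setting tried. The other epidermal Mitf calls were not as firm. Between transient and telogen it was lost without any 1 of the 3 telogen arrays, transient replicate 2 or 4 or sustained replicate 5 (0.0557 to 0.123). Between sustained and telogen it was lost without any 1 telogen array or sustained replicate 2 (0.0521 to 0.0643).

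By the test used here Mitf was called between the compartments only in telogen, and only on 1455214_at. There 1455214_at was 8.03 ± 0.55 in dermis and 9.17 ± 0.19 in epidermis (SD, n = 3), a difference of -1.14 ± 0.31 (adjusted p = 0.00935). This call was lost with arrays centred on their median (difference -0.66, adjusted p = 0.191) and without dermal telogen replicate 4 (-0.83, adjusted p = 0.0661). It was also lost with only the 6 arrays compared (adjusted p = 0.0712). In neonatal, transient and sustained skin the differences of this probe set were -0.12, 0.40 and 0.06. On 1422025_at the telogen difference was -0.89 ± 0.46 and was not called (adjusted p = 0.177). Whether the fall from telogen differed between compartments was tested directly. On 1455214_at transient minus telogen in dermis exceeded the same in epidermis by 1.55 ± 0.43 (adjusted p = 0.0949). Sustained did so by 1.20 ± 0.43 (0.169) and neonatal by 1.03 ± 0.43 (0.196), none of them called. On 1422025_at the values in the same order were 1.32, 0.17 and 0.30 (adjusted p = 0.324, 0.946 and 0.86), also not called.

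**Figure D2:**
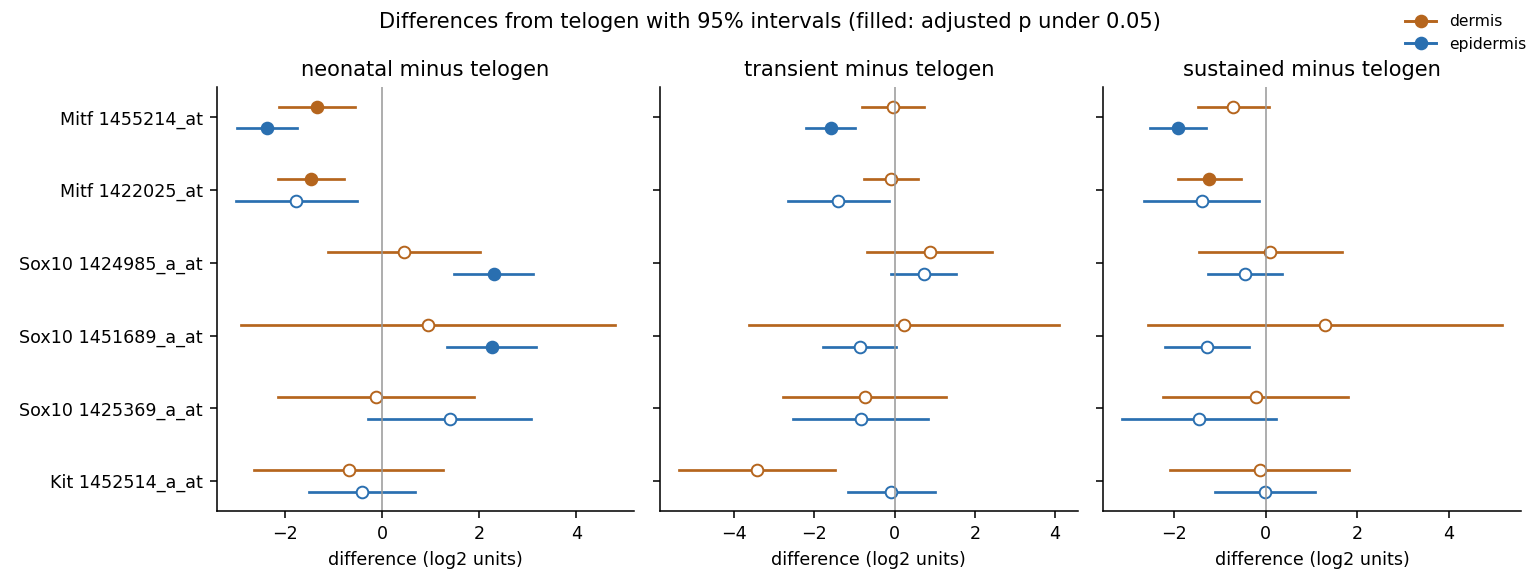
Log2 differences from telogen (x axis) of each probe set (y axis) in neonatal, transient and sustained skin, with limma's 95% intervals; filled points have an adjusted p under 0.05. Mitf lies left of 0 in all 3 epidermal comparisons (-2.38, -1.60 and -1.91), while Sox10 lies right of 0 in neonatal epidermis (2.29 and 2.25).

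Levels in sorted bulk RNA follow both the share of a cell type and its RNA per cell, and fewer Mitf-expressing cells cannot be told apart from less Mitf per cell. Macrophage markers moved between the same groups. On epidermal arrays the summed linear signal of 12 named macrophage markers was 2284.5 to 3489 in neonatal, 3032 to 4156 in telogen, 633 to 1866 in transient and 432 to 577 in sustained skin. Between sustained and telogen epidermis 6 of the 12 fell (Lyz2, C1qc, Cd163, Ptprc, Tyrobp and Fcer1g), beside 3.22% of named genes, and between transient and telogen 2, beside 0.987%. Between neonatal and telogen 2 fell (Lyz2 and Cd163), a share near the 16.8% of named genes. In neonatal epidermis this sum overlapped the telogen range while the mean of Mitf was at its lowest. In dermis the sum was 80.8 to 119 in neonatal, 788 to 943 in telogen, 244 to 563 in transient and 179 to 199.6 in sustained arrays. The dermal sum was highest in telogen and lower in transient skin. Mitf 1455214_at had like means in both (8.03 in telogen and 7.98 in transient dermis). The part of these cells in the Mitf result was not tested.

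Sox10 followed another order: it was highest in neonatal epidermis, and its group means were lower in dermis than in epidermis in each state. Probe set 1451689_a_at stood at 7.75, 8.31 and 7.90 on neonatal epidermal arrays, 5.43, 6.40 and 5.38 in telogen, 4.97, 4.27 and 5.34 in transient and 4.79, 4.78 and 3.82 in sustained epidermis. Probe set 1424985_a_at gave 7.22, 7.70 and 7.73 in neonatal, 5.30, 5.43 and 5.06 in telogen, 5.97, 5.45 and 6.53 in transient and 4.74, 4.28 and 5.42 in sustained epidermis. The dimmest, 1425369_a_at, gave 6.31, 5.55 and 6.17 in neonatal, 4.17, 4.61 and 5.10 in telogen, 2.91, 3.52 and 4.92 in transient and 1.60, 4.79 and 3.15 in sustained epidermis. On all 3 probe sets every neonatal epidermal array was above every other epidermal array. The probe sets were named because the authors list them as higher in neonatal epidermis, so this order is not independent of the naming.

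Neonatal epidermis exceeded telogen by 2.29 ± 0.36 (1424985_a_at, 4.89-fold, adjusted p = 0.00645) and 2.25 ± 0.41 (1451689_a_at, 4.77-fold, adjusted p = 0.0112). Over transient epidermis the neonatal excess was 1.57 ± 0.36 (adjusted p = 0.0352) and 3.13 ± 0.41 (8.73-fold, adjusted p = 0.00406), and over sustained epidermis 2.74 ± 0.36 (6.68-fold, adjusted p = 0.00432) and 3.53 ± 0.41 (11.5-fold, adjusted p = 0.00271). The third probe set had differences of the same sign, 1.39 ± 0.75, 2.23 ± 0.75 and 2.83 ± 0.75, none called (adjusted p = 0.323, 0.11 and 0.0628). No Sox10 difference was called among telogen, transient and sustained epidermis. The probe sets also ordered them differently, since transient was above telogen by 0.72 on 1424985_a_at and below it by a difference of -0.87 on 1451689_a_at.

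With Mitf counted, neonatal and telogen epidermis differed in 3 of the 6 probe sets (2 of Sox10 higher, 1 of Mitf lower), beside 6.99% of all probe sets. The same 2 of Sox10 were the calls between neonatal and transient (2 of 6, 5.94% of all) and between neonatal and sustained epidermis (2 of 6, 4.88%). Mitf 1455214_at was the call between transient and telogen (1 of 6, 0.844%) and between sustained and telogen (1 of 6, 1.15%). None was called by limma between sustained and transient epidermis (0.0155%), where 1 had an unadjusted p under 0.05. These are the 9 epidermal calls. For 1424985_a_at the calls against telogen and sustained epidermis were kept in every fit run. Its call against transient was lost in 8 of the 12 fits without 1 array (adjusted p from 0.0527 to 0.1; each neonatal and telogen array, and transient replicates 2 and 3). The call of 1451689_a_at against telogen was lost without telogen replicate 2 (0.0519), and with all 24 arrays in 1 fit (0.33), where its wide dermal spread enters. Its calls against transient and sustained epidermis were kept in every fit without 1 array and lost with all 24 arrays in 1 fit. That against transient was also lost with only the 6 arrays compared (adjusted p = 0.0623), and that against sustained with the replicate block (0.0508).

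In dermis Sox10 was low and uneven. Probe set 1424985_a_at lay between 1.82 and 4.46 on the 12 dermal arrays, at group means of 3.65 ± 0.73 in neonatal, 3.20 ± 1.06 in telogen, 4.07 ± 0.34 in transient and 3.31 ± 1.29 in sustained dermis. Probe set 1451689_a_at ranged from -2.41 to 4.54 and 1425369_a_at from 0.57 to 4.50. All 3 probe sets were below the median of every dermal array (highest percentile 48.3), and no difference between dermal groups was called. Group SDs reached 2.93 on 1451689_a_at. On 1425369_a_at the transient arrays lay below the telogen arrays without overlap (-0.75, adjusted p = 0.748).

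Sox10 was lower in dermis than in epidermis by all 3 probe sets in neonatal skin. The differences were -3.91 ± 0.57 (adjusted p = 8.435e-05), -6.55 ± 1.31 (adjusted p = 0.00163) and -3.98 ± 0.87 (adjusted p = 0.00328) for 1424985_a_at, 1451689_a_at and 1425369_a_at. In telogen they were -2.06 ± 0.57 (adjusted p = 0.0122), -5.24 ± 1.31 (0.00596) and -2.46 ± 0.87 (0.0441). In transient skin 2 were called, at -1.91 ± 0.57 (adjusted p = 0.0205) and -4.14 ± 1.31 (0.0271), and the third was at -2.37 ± 0.87 (adjusted p = 0.0522; 0.0489 with the mouse as a block). In sustained skin none was called, at -1.51 ± 0.57, -2.67 ± 1.31 and -1.23 ± 0.87 (adjusted p = 0.103, 0.234 and 0.451).

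Of the 6 probe sets 3 were thus called in neonatal skin (15.8% of all probe sets), 4 in telogen (25.6%), 3 in transient (25.6%) and none by limma in sustained skin (12.6%), where 2 had an unadjusted p under 0.05. Each of these 10 calls was lower in dermis. The neonatal Sox10 calls were kept in every fit that left out 1 array and in every other setting in which these probe sets were tested, but dermal signals this low do not fix the size. The difference ran from -4.13 to -2.81 for 1424985_a_at, from -8.11 to -3.59 for 1451689_a_at and from -4.31 to -1.98 for 1425369_a_at over the settings. The other Sox10 calls were less firm. In telogen 1425369_a_at lost its call in 14 of the 24 fits without 1 array (adjusted p from 0.0503 to 0.13) and 1424985_a_at without dermal telogen replicate 3 (0.0779). In transient skin 1424985_a_at lost it without dermal replicate 2 or 4 or epidermal replicate 4 (0.0565 to 0.0883), and 1451689_a_at without dermal replicate 3 or 4 or epidermal replicate 2 or 4 (0.0593 to 0.112). Quantile normalization ended the telogen calls of 1424985_a_at (adjusted p = 0.0525) and 1425369_a_at (0.201) and the transient call of 1451689_a_at (0.0658). Median centring ended the transient call of 1424985_a_at (0.059) and the telogen call of 1425369_a_at (0.108). Array weights ended the transient call of 1424985_a_at (0.0548). With only the 6 arrays compared 1451689_a_at lost its telogen (0.0538) and transient calls (0.0645), and 1424985_a_at its telogen call (0.0514). Whether the neonatal rise of Sox10 was larger in epidermis than in dermis was not settled. The tested difference of 1424985_a_at was -1.85 ± 0.81 (interval -3.55 to -0.15, adjusted p = 0.218). Those of 1451689_a_at and 1425369_a_at were -1.31 ± 1.86 and -1.52 ± 1.23 (adjusted p = 0.772 and 0.562). With an offset of 16 before log2 the differences of 1424985_a_at and 1451689_a_at were called (adjusted p = 0.00281 and 0.0115).

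Markers of Schwann cells and neural crest glia were also measured beside Sox10. In neonatal over telogen epidermis 4 of 13 named markers rose (12.3% of named genes did), among them Mal, a gene of myelin membrane, Prx, the gene of periaxin, and Fabp7, a lipid carrier of glial precursors. Over transient epidermis 4 rose, with Mal and Fabp7 among them (9.58% of named genes), and over sustained epidermis 8 (7.96%), and none of the 13 fell in these 3 comparisons. Fabp7 stood at 7.54, 7.92 and 7.86 in neonatal epidermis and at 4.75 ± 0.35 in telogen (3.02 ± 0.39, adjusted p = 0.00266).

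Against dermis, 9 of the 13 glial markers were higher in neonatal epidermis and 1, Pmp22, lower, where 19.6% and 20.1% of named genes were. In telogen the counts were again 9 and 1 (30.3% and 28%), in transient 5 and 1 (26.8% and 26.1%) and in sustained skin 2 and 3 (15.9% and 18.8%). The summed linear signal of the 13 on epidermal arrays was 3279 to 4060.3 in neonatal, 1735 to 2918 in telogen, 1943 to 2119.7 in transient and 1560.3 to 1758 in sustained skin. On dermal arrays it was 1895 to 2159 in neonatal, 2501 to 2920.5 in telogen, 2610.2 to 2800.1 in transient and 2441 to 2903 in sustained skin. The sum was thus higher in epidermis in neonatal skin and higher in dermis in transient and sustained skin. In transient skin it went another way than the counts, where 5 markers were higher in epidermis and 1 lower. Foxd3, a neural crest factor of both glial and melanocyte precursors, stood at 4.94, 5.63 and 5.42 in neonatal epidermis and between -0.07 and 2.77 in neonatal dermis (-4.42 ± 1.00, adjusted p = 0.00453). The fibroblast markers given above were also highest in neonatal epidermis, 6 of 10 of them called against telogen. The part of glia or of other cells in the Sox10 result was not tested.

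**Figure D3:**
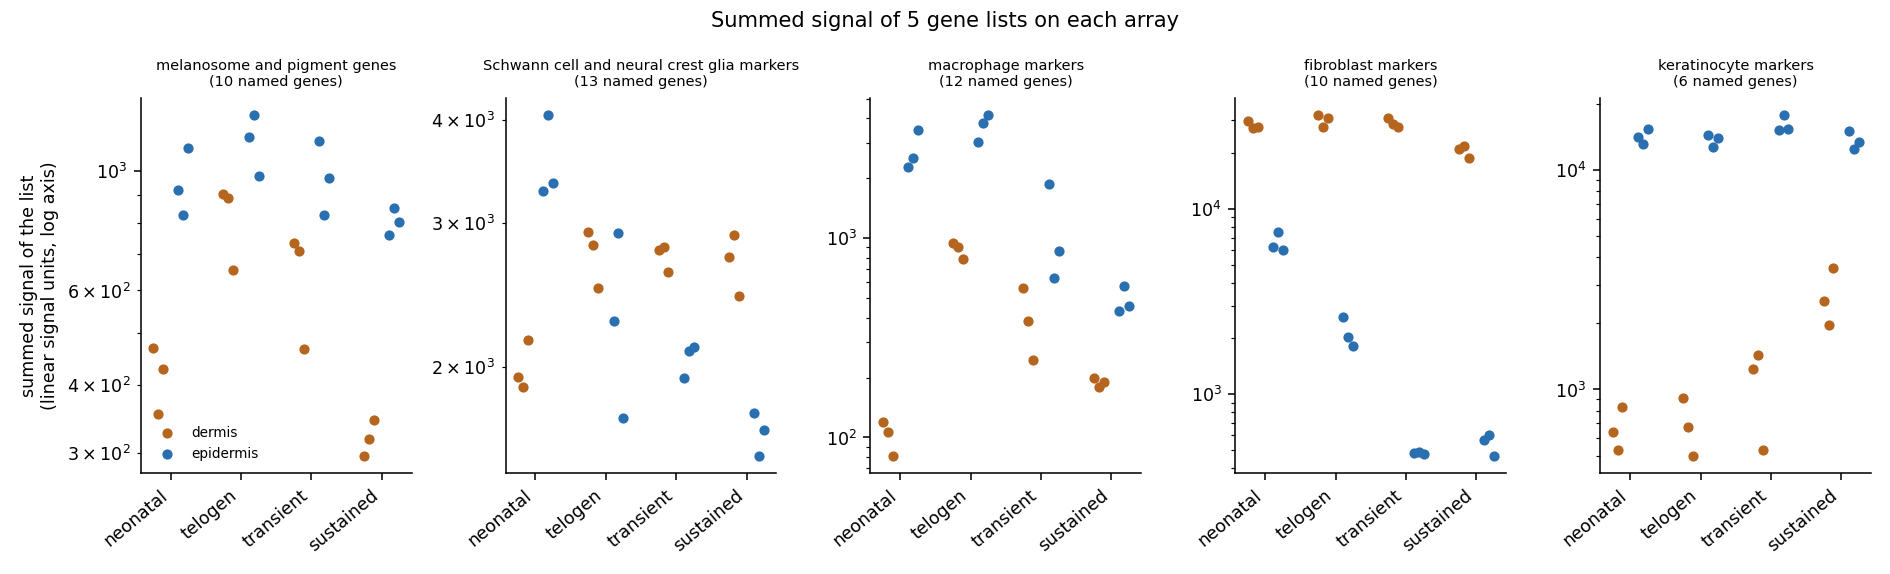
Summed linear signal of 5 gene lists on each array (log y axis) by state (x axis) and compartment (colour); a point is 1 array. Glial markers are highest on neonatal epidermal arrays (3279 to 4060.3), macrophage markers on neonatal and telogen epidermal arrays, and fibroblast markers on dermal arrays.

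Mitf and Sox10 had different orders across the groups. In epidermis the neonatal arrays combined the highest Sox10 (7.22 to 7.73 on 1424985_a_at) with Mitf at 6.50 to 7.24 on 1455214_at, which overlaps the sustained arrays, and the telogen arrays combined the highest Mitf with Sox10 at 5.06 to 5.43. As a description over arrays that share groups, Pearson's r between these probe sets was -0.15 over 24 arrays, -0.52 over the 12 epidermal and -0.15 over the 12 dermal arrays. The 3 Sox10 probe sets correlated with each other at 0.71 to 0.74 over 24 arrays. Over the 12 dermal arrays, where they are near the low end, the same pairs gave -0.30 to 0.03.

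**Figure D4:**
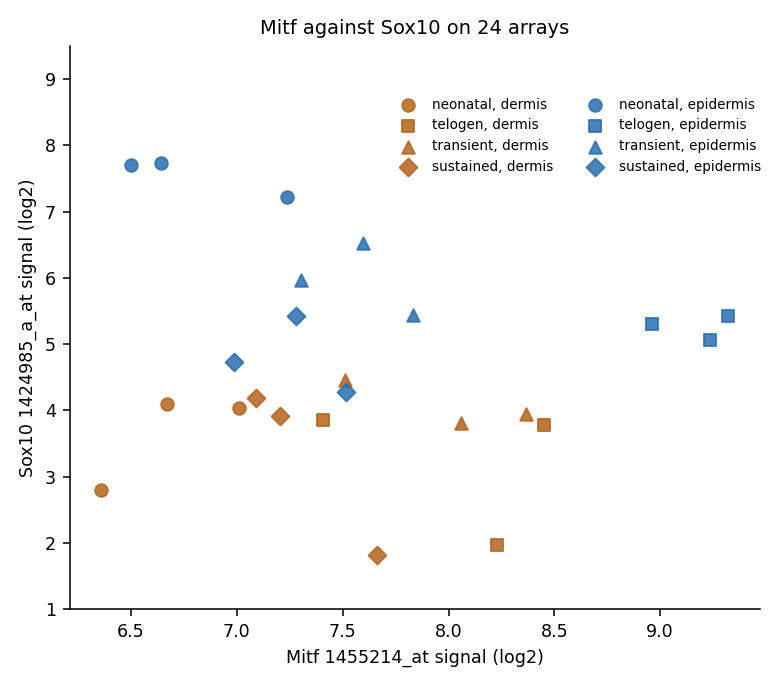
Log2 signal of Sox10 1424985_a_at (y axis) against Mitf 1455214_at (x axis) on each of 24 arrays, with state as symbol and compartment as colour. Neonatal epidermal arrays lie at the upper left (Sox10 7.22 to 7.73) and telogen epidermal arrays at the far right (Mitf 8.96 to 9.32).

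No Kit difference was called between the epidermal states, and on dermal arrays Kit was lower than on every epidermal array. In epidermis it stood at 5.54, 4.75 and 5.32 in neonatal, 5.09, 6.15 and 5.63 in telogen, 6.49, 4.82 and 5.29 in transient and 6.29, 5.38 and 5.17 in sustained skin. All 4 groups overlapped, and the 6 differences between states ran from -0.42 to 0.08 with none called. The interval for sustained minus telogen was -1.10 to 1.08.

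Dermal Kit stood at 3.55, 3.19 and 2.79 in neonatal, 3.52, 3.91 and 4.18 in telogen, 2.08, -2.01 and 1.26 in transient and 4.52, 3.60 and 3.10 in sustained skin. All 3 transient arrays were below the other 9 dermal arrays, at percentiles 20.4, 1.35 and 14.5 of their arrays. The transient level was lower than telogen by a difference of -3.43 ± 0.87 (adjusted p = 0.13), neonatal exceeded it by 2.73 ± 0.87 (0.09) and sustained by 3.30 ± 0.87 (0.0871), so none of these was called. The authors' deposited table lists Kit as 3.42-fold lower in anagen than telogen dermis, and as 2.15-fold lower with ectopic follicles and 2.12-fold lower in neonatal dermis. The deposited values give differences from telogen of -0.13 in sustained dermis, with the sign kept in 18 of 21 alternatives, and of -0.70 in neonatal dermis, neither called. At such low signals the size depends on the scale: the difference from telogen was -0.76 with an offset of 16 before log2, and it was -2.20 without transient replicate 3. Its adjusted p ran from 0.0265, with all 24 arrays in 1 fit, to 0.375, with only the 6 arrays compared.

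Against epidermis, Kit was lower in transient dermis by a difference of -5.09 ± 0.73 (interval -6.63 to -3.55, adjusted p = 4.684e-05). That call was kept in every fit, with differences from -5.91 to -1.81, the smallest with the offset of 16, so no fold is given against these low dermal signals. In neonatal, telogen and sustained skin the dermal arrays were also all below the epidermal ones, by differences of -2.03 ± 0.73, -1.75 ± 0.73 and -1.87 ± 0.73, and none passed the threshold (adjusted p = 0.0708, 0.0911 and 0.115). The transient difference exceeded that in telogen by -3.34 ± 1.04 (adjusted p = 0.124), which is not a call, so the gap was not shown to be particular to transient skin. None of the 6 probe sets was called in the 3 tests of whether a change from telogen differs between compartments, in which 5.67% (neonatal), 0.99% (transient) and 2.77% (sustained) of all probe sets were. At an unadjusted p under 0.05 there were 2, 2 and 1.

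Mast cells carry much Kit, and 2 of 18 mast cell markers are named here. Hpgds, a prostaglandin D synthase of mast and other immune cells, stood at 7.66 ± 0.15 in neonatal, 6.27 ± 0.32 in telogen, 3.89 ± 1.35 in transient and 4.26 ± 0.28 in sustained epidermis, and rose in neonatal over transient (3.77 ± 0.55, adjusted p = 0.00633) and sustained epidermis. Srgn, the proteoglycan core of secretory granules, stood at 6.00 ± 0.41, 7.97 ± 0.20, 7.04 ± 0.60 and 6.37 ± 0.61 in the same order. In dermis Hpgds lay between -2.37 and 2.81. The summed linear signal of Hpgds and Srgn was 6 to 17.2 in neonatal and 58.4 to 82.5 in telogen dermis. It was 68.4 to 94.6 in transient and 43.5 to 88 in sustained dermis. The sum in sustained dermis overlapped that in sustained epidermis (66.6 to 128.9). No Kit difference was called between the epidermal states that differed in Hpgds. The part of mast cells in its level was not tested.

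Ligands that act on melanocytes changed in both compartments. Kitl, the gene of KIT ligand, stood between 6.72 and 7.16 in neonatal dermis and at 7.19, 7.60 and 7.82 in telogen, 7.42, 6.21 and 5.25 in transient and 4.82, 3.74 and 4.06 in sustained dermis. Sustained arrays were below all other dermal arrays, and Kitl fell there from telogen by a difference of -3.33 ± 0.50 (adjusted p = 0.00376). In epidermis it kept within 6.84 to 8.14 with no call between states. The drop in sustained dermis differed from the change in sustained epidermis when tested (-3.39 ± 0.61, adjusted p = 0.00431). Hgf, another growth factor for melanocytes, fell in the same comparison from 7.81 ± 0.30 to 3.30 ± 2.30 (-4.51 ± 0.91, adjusted p = 0.0136).

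Endothelins, peptides that act on melanocyte precursors through EDNRB, moved the other way. Edn3 rose from 4.70 ± 0.33 in telogen to 6.60 ± 0.50 in sustained dermis (1.90 ± 0.37, adjusted p = 0.0119) and was 6.22 ± 0.44 in neonatal dermis (1.52 ± 0.37, adjusted p = 0.0236). Edn1 in epidermis stood at 5.47, 5.89 and 5.95 in telogen and rose to 7.63 ± 0.21 in neonatal, 7.51 ± 0.28 in transient and 7.39 ± 0.38 in sustained skin (adjusted p = 0.00493, 0.0272 and 0.0267). Edn2 rose over telogen in transient (2.08 ± 0.26, adjusted p = 0.0112) and sustained epidermis (1.93 ± 0.26, adjusted p = 0.0118). Dkk1, a secreted WNT antagonist, and Corin, a protease of the dermal papilla that modifies coat colour in mice, also rose in sustained over telogen dermis (3.35 ± 0.38 and 5.05 ± 0.56, adjusted p = 0.00128 and 0.00117). Of 9 named ligands and antagonists 4 rose and 2 fell in that comparison, against 18% and 19.2% of the 4560 named genes. The part of the keratinocyte markers, which were highest in the same dermal sort, was not tested.

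**Figure D5:**
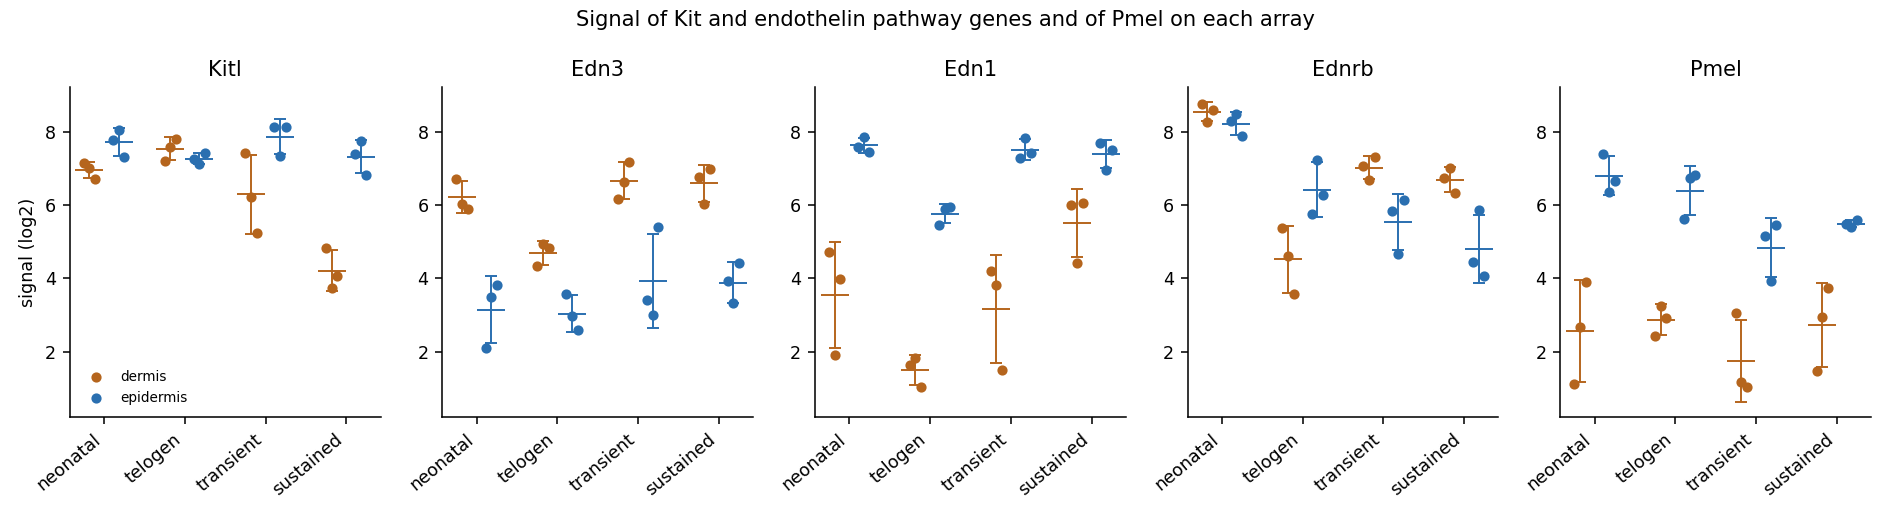
Log2 signal of Kitl, Edn3, Edn1, Ednrb and Pmel on each array by state (x axis) and compartment (colour), with group means and 1 SD over 3 arrays. Kitl is low on the sustained dermal arrays (3.74 to 4.82), Ednrb is lowest in telogen dermis, and Pmel is higher on epidermal than on dermal arrays in each state.

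Among 12 named regulators and receptors of the lineage, Ednrb, the endothelin receptor, stood out in dermis. It was 8.77, 8.27 and 8.61 in neonatal, 5.38, 4.60 and 3.57 in telogen, 7.08, 6.68 and 7.30 in transient and 6.73, 7.02 and 6.34 in sustained dermis. Telogen was below all other dermal arrays, with rises of 4.03 ± 0.42, 2.50 ± 0.42 and 2.18 ± 0.42 in neonatal, transient and sustained dermis (adjusted p = 0.0003, 0.0393 and 0.0114). In epidermis Ednrb was 8.23 ± 0.31 in neonatal, 6.42 ± 0.75 in telogen, 5.55 ± 0.77 in transient and 4.80 ± 0.94 in sustained skin. Lef1, a partner of beta-catenin, rose in neonatal over telogen in dermis (1.99 ± 0.35, adjusted p = 0.00543) and epidermis (3.24 ± 0.48, adjusted p = 0.0051). Sox9, a relative of Sox10 with roles in hair follicle keratinocytes, rose in sustained epidermis to 10.61 ± 0.02 from 9.31 ± 0.17 in telogen (1.30 ± 0.21, adjusted p = 0.0233) and was 8.38 ± 0.12 in neonatal epidermis, an order unlike that of Sox10. Mc1r, the melanocortin receptor, stood at 5.31 ± 0.47 in neonatal and 3.58 ± 0.31 in telogen epidermis (1.73 ± 0.47, adjusted p = 0.058).

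In neonatal over telogen epidermis 3 of these 12 rose (Zeb2, Lef1 and Adamts20) and 2 fell (Tfap2b and Sox9), against 12.3% and 16.8% of named genes. Zeb2, a neural crest and mesenchymal factor, followed the fibroblast genes: it was 8.95 ± 0.50 in neonatal and 4.94 ± 0.33 in sustained epidermis and between 9.85 and 11.09 on dermal arrays. Of 10 named receptor kinases related to Kit and their signal partners, Csf1r, the receptor of macrophages, stood at 9.23 ± 0.10 in neonatal and 4.73 ± 1.07 in sustained epidermis (4.51 ± 0.71, adjusted p = 0.00943). In neonatal against telogen dermis 1 of the 10 rose (Ptpn11) and 5 fell (Pdgfrb, Csf1r, Pik3r1, Stat5a and Stat5b), beside 23.4% and 28.2% of named genes. In epidermis 1 fell (Flt3), beside 16.8%.

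Of 26 listed melanosome and pigment genes 10 are named here, so most of the list is not described. The 10 differed mainly between the compartments. In neonatal skin 7 were lower in dermis than epidermis (against 19.6% of named genes). In telogen 4 were (30.3%, near that share), in transient 7 (26.8%) and in sustained skin 6 (15.9%). Higher in dermis were 2 in neonatal skin (Atp7a and Sytl2) and 1 in telogen (Gpnmb), beside 20.1% and 28% of named genes, and none in transient and sustained skin. Pmel, the fibril protein of the melanosome, was 7.40, 6.36 and 6.65 in neonatal, 5.62, 6.74 and 6.83 in telogen, 5.16, 3.92 and 5.45 in transient and 5.50, 5.40 and 5.59 in sustained epidermis. On dermal arrays it lay between 1.03 and 3.90, below every epidermal array, with differences of -4.24, -3.53, -3.09 and -2.77 in the 4 states (adjusted p from 0.00023 to 0.0101). Rab38, which carries enzymes to melanosomes, showed the same split (-4.94 to -2.31).

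Between neonatal and telogen epidermis, where Mitf differed 5.2-fold, 1 of the 10 was called, near the share of named genes (12.3% higher and 16.8% lower). This was Mreg, a melanosome transport gene that stood at 6.41, 5.92 and 6.93 in neonatal and 8.23, 8.50 and 7.71 in telogen epidermis (-1.73 ± 0.34, adjusted p = 0.0156). Pmel differed by 0.41 ± 0.47 (adjusted p = 0.683) and Trpm1, a channel of melanocytes, by 1.44 ± 0.51 (adjusted p = 0.127). Rab27a, which ties melanosomes to the transport motor, was 7.28 ± 0.45 in neonatal, 6.67 ± 0.15 in telogen, 5.84 ± 0.04 in transient and 5.26 ± 0.30 in sustained epidermis, and fell in sustained from telogen (-1.42 ± 0.27, adjusted p = 0.0419). The median difference of the 10 genes between neonatal and telogen epidermis was -0.30, beside -0.01 for all probe sets. In neonatal over transient epidermis 2 of the 10 were higher (Pmel and Rab27a) and 2 lower (Mreg and Sytl2), beside 9.58% and 12.9% of named genes. Over sustained epidermis 2 were higher (Rab27a and Rab38) and 0 lower, beside 7.96% and 11%. Gpnmb, a melanosome protein that macrophages also make, went with dermal Mitf: it was 3.28 ± 0.09 in neonatal, 8.57 ± 0.38 in telogen, 8.31 ± 0.75 in transient and 5.88 ± 0.23 in sustained dermis (neonatal minus telogen -5.28 ± 0.36, adjusted p = 4.38e-05). Rab32, a melanosome trafficking gene, was with Gpnmb the only other of the 10 to fall in neonatal and in sustained against telogen dermis, a share near or below that of named genes (28.2% and 19.2%). The macrophage markers given above were also highest in telogen dermis, and their part in the Gpnmb result was not tested.

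The genes whose pattern was most like each of the 3 were sought among 4517 named probe sets at or above the median signal. For Mitf 1455214_at over 24 arrays they were Pcmtd1 (r = 0.86), LOC100048247 (0.83), Tob2, Anxa7 and Nr3c1, and over the 8 group means Il4ra (0.95), Fas, Creg1, LOC100048247 and Trim25. For Sox10 1424985_a_at they were Wnt4 (0.88), L1cam, Arhgap9, Hmga1 and Cxcl14 over arrays, and Parm1 (0.95), Wnt4, Arhgap9, L1cam and Cxcl14 over group means, with L1cam, an adhesion molecule of nerves and glia, on the glial list. For Kit they were Mmp15 (0.85), S1pr5, Clca3a2, Nebl and Hmgn5 over arrays, and Srsf7 (0.95), Edaradd, Nsdhl, Ptn and Krt79 over group means. These correlations describe points that share groups and compartments.

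The authors' deposited tables hold 21 entries for the 6 probe sets, 7 dermal and 14 epidermal, and the deposited values gave the same direction in all 21, although the Kit difference for ectopic follicles was only -0.13. Both come from the same series, so this agreement is not independent evidence. In the authors' deposited tables Mitf 1455214_at is 4.76-fold lower in neonatal than telogen epidermis, 3.36-fold lower in anagen and 3.4-fold lower with ectopic follicles. In the same tables Sox10 1451689_a_at is 4.67-fold higher in neonatal epidermis than in telogen, 6.96-fold higher than in anagen and 8.73-fold higher than with ectopic follicles.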

How the data were processed

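The authors deposited 1 table of log2 values for 24 Affymetrix arrays, of 45101 probe sets. Amplification used WT-Ovation Pico, per the labels' protocols. RMA and MAS5 are named in the submitters' processing notes, with no version and no role. Once unlogged, each deposited array has a mean of 100.02 to 100.03 when 2% of its values are trimmed at each end. Per the file headers, the authors also list regulated genes by fold, a linear ratio of 2 groups marked up or down. Names came from those lists, as updated through Entrez IDs in RefSeq's gene table.

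After leaving out 64 control probe sets, 45037 were tested with limma 3.58.1 (R 4.3.3), with no filter and no pseudocount and with values below 0 kept. A difference was called when its p, adjusted by Benjamini-Hochberg across these 45037, was under 0.05. Comparisons of states used the 12 arrays of a compartment, and comparisons of compartments and their interactions used all 24. SE is limma's, and 3 arrays per group limit the precision. The fits were tested on simulated data.

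All probe sets named Mitf, Sox10 or Kit are reported. Members, gene lists and tests were chosen with earlier results of these data known. A list gene is represented by its probe set with the highest mean, counted in the lists and named where it passed a test or bears on a member. Like genes are the 5 with the highest Pearson r. A number shared by both sorts of 1 state was taken as the same mouse (11 pairs, median correlation of deviations 0.0167); across states a number marks different mice. Alternatives were quantile normalization, median centring, leaving out dim probe sets, an offset of 16, trended and robust eBayes, array weights, a minimum log2 difference of 1, other sets of arrays, the replicate block and leaving out each array. Values of some single list genes are not reported here.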

Additional observations from a re-analysis of the deposited data

How the results depend on the processing

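The counts of calls (a probe set in a comparison) kept within 1.5 times under the settings not named here. The 5 dermal calls became 1 with only the 6 arrays compared. With the number as a replicate block they became 0 (limma, with 10 at an unadjusted p under 0.05). The 9 epidermal calls became 5 under each of these settings. Across states this block joins different mice, and whether arrays of 1 number also shared handling was not tested. Their deviations from group means correlated at -0.002 to 0.0462 in dermis (median 0.0104). In epidermis the range was -0.0923 to 0.2516 (median -0.0075). Leaving out 1 array gave 2 to 5 dermal, 5 to 10 epidermal, 7 to 12 compartment and 0 to 1 interaction calls. The 10 compartment calls became 1 with dim probe sets left out, since that setting keeps only 2 of the 6 probe sets, and 11 with the mouse as replicate block. Against 0 interaction calls there was 1 with dim probe sets left out, 3 with an offset of 16 and 1 with trended and robust eBayes. The cause of these interaction differences was not tested. No called value changed its sign under any setting. Dermal Sox10 and Kit lie at the low end of the arrays, where the log2 scale stretches small differences, so their sizes depend most on the offset.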
